A study of Mus musculus with 6 samples.

Results

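Glycolysis, glycogen turnover and lactate handling were followed through 36 genes, out of 32285 genes in the deposited scRNA-seq matrices. These 36 genes were chosen by name for the step that each product carries out, with earlier results of these data known. They comprised 3 genes of glucose uptake and phosphorylation, 9 of upper glycolysis, 6 of lower glycolysis, 7 of lactate and pyruvate handling and 11 of glycogen metabolism. All 36 were found and all 36 passed the filter on low counts in the comparison of cell classes, in some cases on the counts of 1 class only (*Slc16a3* had 13 unique molecular identifiers, UMIs, in astrocytes and *Ppp1r3g* had 7 in pericytes).

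The cells came from the amygdala of wild-type male C57BL/6N mice aged 8 to 12 weeks, were dissociated in the presence of actinomycin D, triptolide and anisomycin 90 min after behaviour began, and were sorted with ACSA-2, an antibody to the sodium pump subunit ATP1B2. The 16 mice formed 4 groups of 4. These were mice placed in the conditioning chamber without shock (NoFC) and mice taken after fear conditioning (FC). The others had been conditioned a day earlier and were either kept in the home cage without recall (NoFR) or taken after fear recall (FR). NoFC and NoFR mice thus differed in their last chamber exposure as well as in shock, and these were not tested apart. Cells of each mouse carried a hashtag antibody and were pooled into 3 libraries. Every group contributed 2 mice to library 1. Of the remaining mice, library 2 took 2 FC mice with 1 mouse each of NoFC and FR, and library 3 took 2 NoFR mice with 1 mouse each of NoFC and FR.

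In the brain, glycogen is held mainly by astrocytes. Glycogen synthase and branching enzyme build it on glucose units supplied through phosphoglucomutase and UDP-glucose pyrophosphorylase, and phosphorylase releases those units again when phosphorylase kinase switches it on. Glycolysis then turns glucose into pyruvate, lactate dehydrogenase interconverts pyruvate and lactate, and monocarboxylate transporters carry lactate across the cell membrane. Several of these steps are carried out by enzymes with a form typical of astrocytes or neurons and another found in most tissues, so that the mix of forms is commonly used to describe a cell's metabolism. Pericytes, the mural cells wrapped around capillaries, were the other large class in the sort.

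Astrocytes were barcodes with at least 20 UMIs of *Slc1a2* and *Slc1a3* together and at most 3 of *Vtn* and *Rgs5*, and pericytes had at least 10 UMIs of *Vtn* and *Rgs5* and at most 5 of *Slc1a2* and *Slc1a3*. These gates held 8757 astrocytes (3557, 2503 and 2697 in libraries 1, 2 and 3; median 9891 UMIs per cell) and 2260 pericytes (880, 664 and 716; median 5006 UMIs), out of 13546 barcodes. UMIs were summed per library and class, which gave 27145742 to 36469481 UMIs per astrocyte sum and 3538589 to 4417539 per pericyte sum. The libraries shared 8, 7 and 3 barcode sequences in their 3 pairs. GEO's label calls all of the cells astrocytes, but the pericyte markers outside the gate summed to 10847 to 11009 CPM (UMIs scaled to the total of the sum, here without TMM) in the pericyte class against 134 to 148 in astrocytes. Astrocyte markers outside the gate summed to 3782 to 3991 in astrocytes and 690 to 738 in pericytes, of which *Atp1b2*, the sort antigen, gave 666 to 696. The levels of the 4 gate genes were fixed by the gates and are left out of these sums. In the pericytes of all 3 libraries *Gfap* was at 0. Of the other cell types, endothelial markers summed to 539 to 551 in pericytes and 3.06 to 8.01 in astrocytes, carried in pericytes by *Emcn* (360 to 377) and *Flt1* (124 to 137), whereas *Cldn5* (0.283 to 15.0), *Pecam1* (0.905 to 1.88), *Cdh5* (0 to 0.537) and *Ly6c1* (0 to 2.15) were low. Smooth muscle markers summed to 151 to 209 in pericytes and 0.516 to 0.603 in astrocytes, and fibroblast markers to 225 to 258 and 18.7 to 29.2. Neuron markers (2.54 to 4.29 in pericytes, 11.3 to 17.3 in astrocytes), oligodendrocyte markers (4.30 to 8.20 and 10.4 to 11.3) and microglia markers (9.61 to 15.3 and 15.4 to 18.9) were low in both. The part of these cells' RNA in the member levels was not tested beyond the alternatives named beside the results.

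The question asked first was how the 2 classes differed in these genes. Most members were lower in pericytes than in astrocytes, with several glycogen genes and the brain-type aldolase *Aldoc* far apart. A smaller set was higher in pericytes, among them the lactate dehydrogenase subunit *Ldha*, the liver-type phosphofructokinase *Pfkl*, the pyruvate kinase *Pkm* and the glycogen branching enzyme *Gbe1*. Together the 36 genes took 0.658% to 0.698% of the UMIs of astrocytes and 0.290% to 0.294% of those of pericytes. Much of the astrocyte total was *Aldoc*. Without TMM, *Aldoc* alone was at 1862 to 2023 CPM in astrocytes, where the 36 genes summed to 6577 to 6982 CPM. In pericytes it was at 19.5 to 31.9 CPM, where the 36 genes summed to 2895 to 2944 CPM.

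The test was edgeR's quasi-likelihood test on the 6 sums with the library as a block and Benjamini-Hochberg adjustment over 15361 genes, and the member levels are CPM after TMM scaling. At adjusted p under 0.05, 32 of 36 members differed, where 79.6% of all genes did. Of these members, 25 were lower in pericytes, where 42.8% of all genes tested were, and 7 were higher, where 36.9% of all genes were. With a log2 difference of at least 1 required as well, 20 members were lower (27.4% of all genes) and 5 higher (19.1% of all genes). The median log2 difference, pericytes minus astrocytes, was -1.46 over the members and -0.10 over all genes tested. The libraries of the 2 classes did not overlap for 82.2% of all genes, so a lack of overlap was the common state, and among the members only *Pygm*, *Bsg* and *Tpi1* overlapped. The filter on low counts was passed through 1 class alone by 4 members, *Slc16a3* through pericytes and *Hk2*, *Slc16a1* and *Ppp1r3g* through astrocytes, so that their differences are a description. The counts and the member median above include these 4. Among the other 32 members 22 were lower and 6 higher, where of the 11865 genes that passed in both classes 38.4% were lower and 39.2% higher. The median log2 difference was -1.27 over those 32 members and 0.009 over those 11865 genes. With total UMIs in place of TMM, 24 members were lower (36.1% of all genes) and 9 higher (43.8% of all genes) while the median of all genes moved to 0.11 and that of the members to -1.25. When UMIs were summed per mouse instead, 23 members could be tested, of which 12 were lower and 4 higher, where 29.9% of the 4551 genes tested were lower and 39.7% higher.

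**Figure D1:**
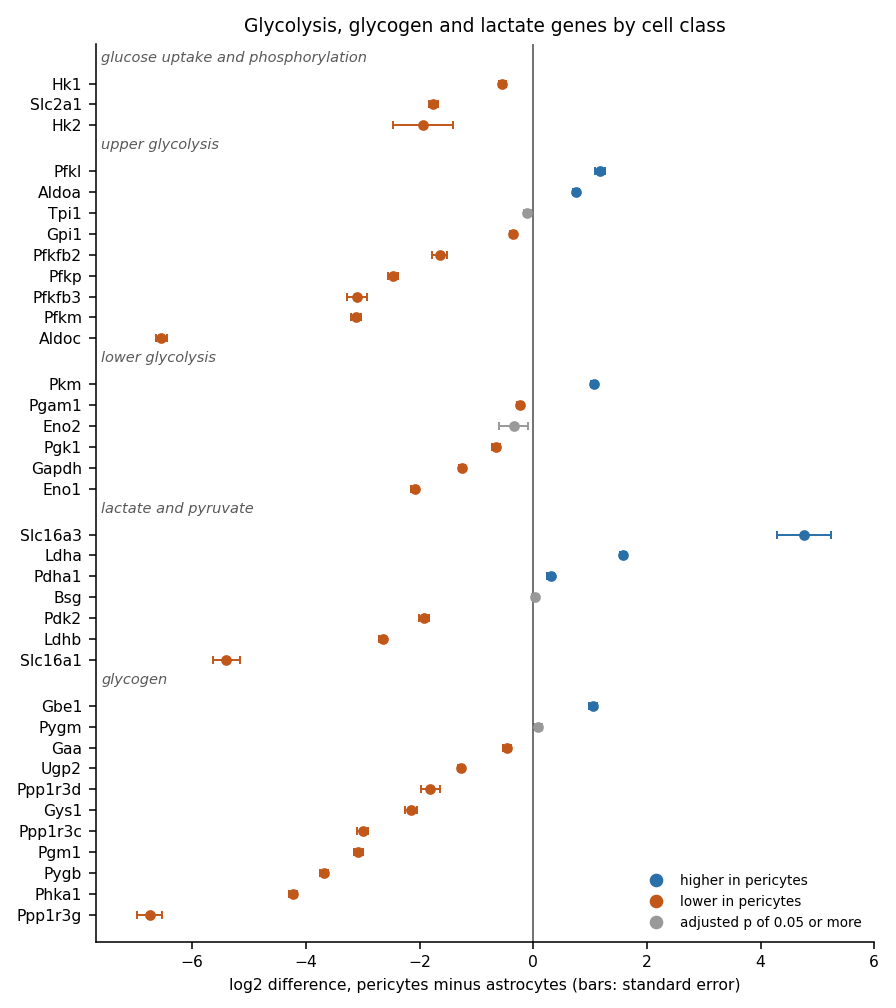
Log2 difference in level between pericytes and astrocytes for each of the 36 members, grouped by role, with bars of 1 standard error from the fit to 6 sums (3 libraries by 2 classes). The members run from *Ppp1r3g* at -6.75 to *Slc16a3* at 4.77, both of which passed the count filter through 1 class alone, most of them lie to the left of 0, and the glycogen genes apart from *Gbe1*, *Pygm* and *Gaa* lie at -1.27 or lower.

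The 250 bases upstream of the first start listed in RefSeq (GRCm38.p6) show the region before the start of the genes that stood furthest apart. They are given for the 3 members with the largest fitted difference in each direction, written 5′ to 3′ on the strand of the gene. Of these members, *Slc16a3*, *Ppp1r3g* and *Slc16a1* passed the count filter only through the class where each was higher. *Slc16a3* had 13 UMIs in astrocytes, and *Ppp1r3g* and *Slc16a1* had 7 and 10 in pericytes. Their differences, and so their places in this choice, are a description. Capitals mark ACGTG on either strand, the core of the element bound by hypoxia-inducible factors and, within CACGTG, of the E-box. The genes higher in pericytes come first, at chr11:120948817-120949066 (plus strand, *Slc16a3*), chr7:46845554-46845803 (plus, *Ldha*) and chr10:78009808-78010057 (minus, *Pfkl*), and then the genes lower in pericytes, at chr13:35967656-35967905 (plus, *Ppp1r3g*), chr11:78322823-78323072 (plus, *Aldoc*) and chr3:104638414-104638663 (plus, *Slc16a1*).
Slc16a3: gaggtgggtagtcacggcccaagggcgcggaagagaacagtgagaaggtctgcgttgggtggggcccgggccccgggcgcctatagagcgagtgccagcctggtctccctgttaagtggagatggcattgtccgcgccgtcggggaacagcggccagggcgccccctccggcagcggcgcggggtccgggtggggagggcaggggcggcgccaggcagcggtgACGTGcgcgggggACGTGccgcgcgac
Ldha: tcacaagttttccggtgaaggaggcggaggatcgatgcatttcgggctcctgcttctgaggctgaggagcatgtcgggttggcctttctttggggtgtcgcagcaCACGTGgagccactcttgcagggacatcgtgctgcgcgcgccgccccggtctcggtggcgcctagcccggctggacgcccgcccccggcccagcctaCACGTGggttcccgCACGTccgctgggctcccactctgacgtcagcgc
Pfkl: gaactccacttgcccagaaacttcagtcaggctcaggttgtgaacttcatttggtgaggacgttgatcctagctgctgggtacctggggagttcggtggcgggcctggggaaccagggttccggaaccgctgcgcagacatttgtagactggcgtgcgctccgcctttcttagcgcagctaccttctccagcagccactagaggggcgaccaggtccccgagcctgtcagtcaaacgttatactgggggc
Ppp1r3g: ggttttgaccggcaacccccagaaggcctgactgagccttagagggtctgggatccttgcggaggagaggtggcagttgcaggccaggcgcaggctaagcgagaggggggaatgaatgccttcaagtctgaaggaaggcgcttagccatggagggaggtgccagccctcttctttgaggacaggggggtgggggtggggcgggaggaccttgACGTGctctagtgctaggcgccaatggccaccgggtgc
Aldoc: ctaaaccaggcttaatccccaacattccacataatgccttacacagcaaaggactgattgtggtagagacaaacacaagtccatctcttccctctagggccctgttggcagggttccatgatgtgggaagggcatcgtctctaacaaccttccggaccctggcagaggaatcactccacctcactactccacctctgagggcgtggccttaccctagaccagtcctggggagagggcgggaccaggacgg
Slc16a1: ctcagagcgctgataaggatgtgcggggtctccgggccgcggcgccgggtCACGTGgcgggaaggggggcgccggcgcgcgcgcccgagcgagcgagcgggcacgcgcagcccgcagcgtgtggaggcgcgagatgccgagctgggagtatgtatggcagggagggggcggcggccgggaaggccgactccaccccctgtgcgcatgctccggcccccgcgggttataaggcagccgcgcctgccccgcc

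In these windows *Ldha* held 5 matches to ACGTG, 4 of them within 2 copies of CACGTG. *Slc16a3* and *Slc16a1* held 2 each, *Ppp1r3g* held 1, and *Pfkl* and *Aldoc* held 0. If only members that passed the count filter in both classes were ranked, *Pkm*, *Phka1* and *Pygb* would replace *Slc16a3*, *Ppp1r3g* and *Slc16a1*. The windows of *Pkm*, *Phka1* and *Pygb*, which are not printed, held 0, 0 and 1 matches to ACGTG. Over the 35 members with an upstream sequence (*Bsg* had none), 19 (54.3%) had at least 1 ACGTG on either strand against 16.6% of 27025 promoters of the same length. CACGTG, each copy of which also contains ACGTG on both strands, was found in 8 members (22.9%, against 6.05% of all promoters), and TGACG, the core of the cAMP response element, in 9 (25.7%, against 17.9%). Members with and without a match were found in both directions of change. The windows printed above were 55.2% to 76.4% G and C. All promoters were matched to the members in length only, not in base composition, which also affects how often such letters occur. These counts describe letters in a window and were not tested.

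In glucose uptake and phosphorylation *Slc2a1* and *Hk1* were lower in pericytes, as was *Hk2*, which was nearly absent from them. *Slc2a1*, the glucose transporter of astrocytes and of the blood-brain barrier, was at 86.1, 89.0 and 88.8 CPM in the astrocytes of libraries 1, 2 and 3 and at 23.7, 24.5 and 29.9 CPM in the pericytes. All pericyte values lay below all astrocyte values, with a log2 difference of -1.76 ± 0.08 (SE; adjusted p = 2.69e-17). *Hk2*, the inducible hexokinase, was rare in both classes, with 182 UMIs in astrocytes (2.24, 2.25 and 1.91 CPM) and 7 in pericytes (1.07, 0.261 and 0.247 CPM), with a log2 difference of -1.94 ± 0.52. Of the 7 pericyte UMIs 5 were in library 1, and the value ran from -2.99 to -1.62 as libraries were left out. Without barcodes holding endothelial marker UMIs the difference did not pass (edgeR adjusted p = 0.190). That filter kept 357 of 2260 pericytes, and the difference was then -1.95 ± 1.30, near the main value with a wider error. *Hk1*, the main hexokinase of the brain, fell by less, from 78.0 ± 1.41 CPM (SD, n = 3 libraries) to 53.3 ± 5.52 CPM, a log2 difference of -0.54 ± 0.07 (adjusted p = 5.01e-08).

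In upper glycolysis 6 of 9 members (66.7%) were lower in pericytes, 2 (22.2%) were higher and *Tpi1* did not pass the test. Over all genes tested 42.8% were lower and 36.9% higher. *Aldoc*, the aldolase form used as an astrocyte marker, was the member furthest apart in level here, at 2177, 2029 and 2041 CPM in astrocytes and 19.8, 18.0 and 29.4 CPM in pericytes. This was a log2 difference of -6.54 ± 0.10, or 93.2-fold (adjusted p = 5.92e-29). Without TMM, its pericyte level was 1.04% to 1.66% of the astrocyte level across libraries. This range overlapped those of the astrocyte markers *Aqp4* (0.740% to 1.30%) and *Gja1* (0.651% to 1.39%), taken in the same way. *Aldoa*, the aldolase found in most tissues, went the other way, at 275, 267 and 264 CPM in astrocytes and 444, 465 and 449 in pericytes (log2 difference 0.75 ± 0.05, adjusted p = 5.04e-14).

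Phosphofructokinase, which commits glucose to glycolysis, differed by isoform. *Pfkl* was at 22.9, 19.6 and 20.5 CPM in astrocytes and at 47.7, 51.5 and 43.0 CPM in pericytes, all 3 pericyte values being higher (log2 difference 1.17 ± 0.09, adjusted p = 1.37e-12). The muscle form *Pfkm* went from 134, 137 and 141 CPM in astrocytes down to 16.6, 16.2 and 14.6 CPM in pericytes, with -3.12 ± 0.08 on the log2 scale (adjusted p = 1.11e-22). The platelet form *Pfkp* was also lower in every pericyte library, at 21.1, 18.0 and 23.3 CPM against 120.2, 109 and 116 CPM in astrocytes (-2.47 ± 0.08, adjusted p = 1.09e-20). The bifunctional enzymes that set the level of the activator of phosphofructokinase were both lower. *Pfkfb3* was at 22.4, 20.4 and 20.7 CPM in astrocytes and 2.34, 2.61 and 2.47 CPM in pericytes (log2 difference -3.10 ± 0.18, adjusted p = 8.46e-15), and the class ranges were far apart. For *Pfkfb2* the levels were 25.4, 25.5 and 26.8 CPM and 7.46, 10.2 and 7.42 CPM in the same order (-1.64 ± 0.13, adjusted p = 7.92e-12), again without overlap. The isomerase *Gpi1* was slightly lower (-0.36 ± 0.06, adjusted p = 1.85e-06), and the triose isomerase *Tpi1*, at 139.6 ± 9.63 CPM in astrocytes and 130.2 ± 4.37 CPM in pericytes (SD, n = 3), did not pass (-0.10 ± 0.05, adjusted p = 0.0866) and had the opposite sign with total UMIs as the scale. *Tpi1* passed as lower without the count filter (-0.17, edgeR adjusted p = 0.00555) and without barcodes holding endothelial marker UMIs (-0.37, adjusted p = 0.00475).

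Lower glycolysis had 4 members lower (66.7%), 1 higher (16.7%) and 1 not past the threshold, where 42.8% of all genes tested were lower and 36.9% higher. *Gapdh*, often used as a reference gene, was at 939, 846 and 877 CPM in astrocytes and at 369, 371 and 371 CPM in pericytes. Its pericyte values were nearly the same in the 3 libraries and all lay below the astrocyte values (log2 difference -1.26 ± 0.05, adjusted p = 3.06e-18). *Eno1*, the enolase of most tissues, was lower by a larger step, at 211, 186 and 186 CPM and 46.0, 45.2 and 46.0 CPM (-2.09 ± 0.07, adjusted p = 5.03e-21). *Pkm*, pyruvate kinase, which makes pyruvate at the last step, was the member of this group that was higher in pericytes, at 257, 248 and 239 CPM against 119, 116 and 121 CPM in astrocytes (log2 difference 1.06 ± 0.05, adjusted p = 4.86e-17). UMIs per gene do not separate its splice forms. *Pgk1* (-0.65 ± 0.07) and *Pgam1* (-0.23 ± 0.06, adjusted p = 0.000905) were lower by less than a log2 unit. The call of *Pgam1* was lost with DESeq2 (adjusted p = 0.0742), with total UMIs (log2 difference -0.02, adjusted p = 0.768), without barcodes holding endothelial marker UMIs (adjusted p = 0.0676) and on sums per mouse (adjusted p = 0.517). *Eno2*, the neuronal enolase, with 362 UMIs in astrocytes and 42 in pericytes, had a log2 difference of -0.35 ± 0.26 that did not pass (adjusted p = 0.222).

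**Figure D2:**
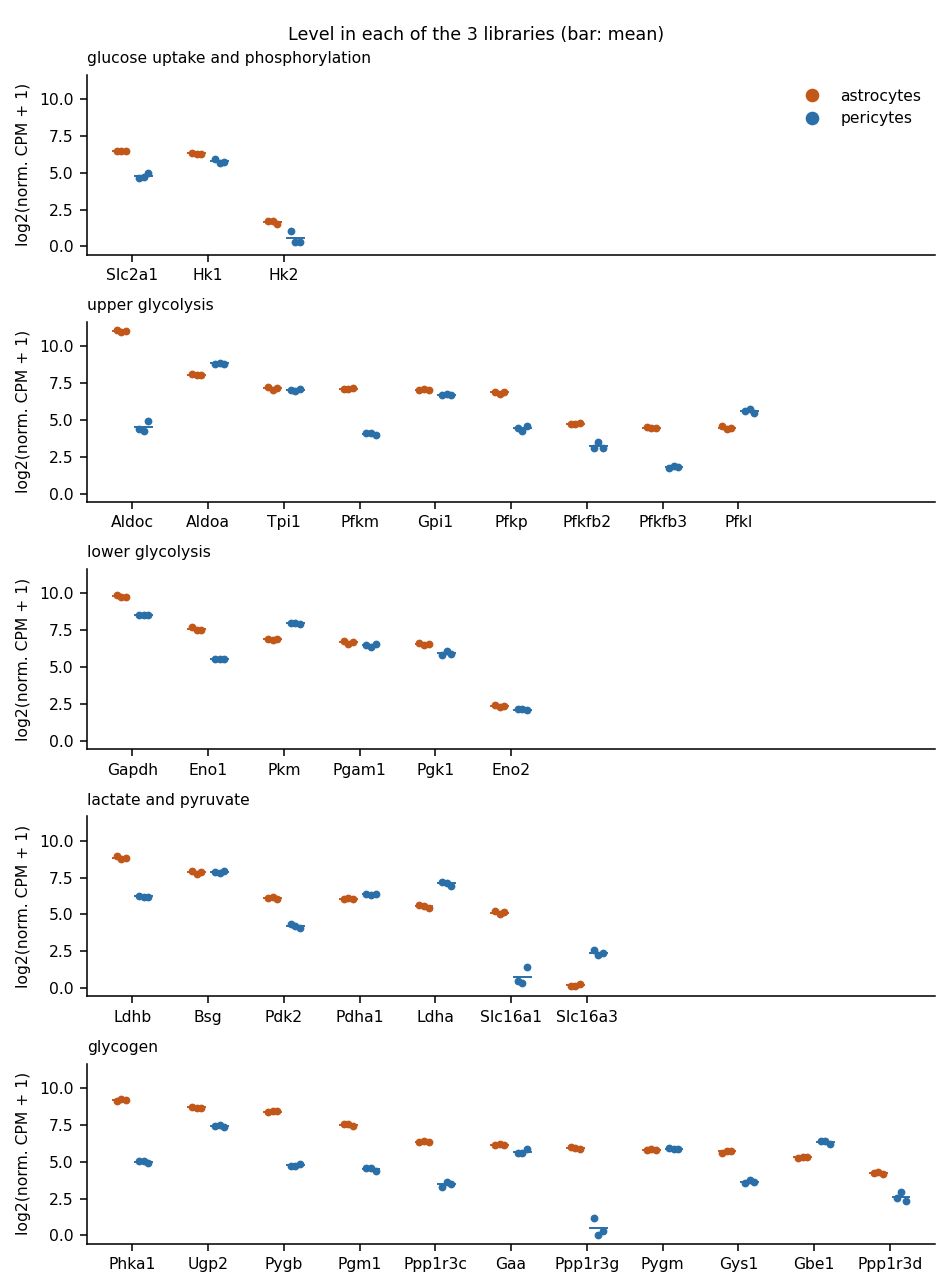
Level of every member in each of the 3 libraries in astrocytes and in pericytes, as log2 of normalized CPM plus 1, grouped by role. Points of a class lie close together across libraries, as for *Gapdh* (369 to 371 CPM in pericytes), and the pericyte points of *Pygm*, *Bsg* and *Tpi1* overlap the astrocyte points.

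Of the lactate and pyruvate genes, 3 members were higher (42.9%), 3 lower (42.9%) and *Bsg* was not past the threshold. Over all genes tested 36.9% were higher and 42.8% lower, so this split was near that of all genes. *Ldha*, the subunit of lactate dehydrogenase that prevails in glycolytic tissue, was at 48.5, 46.3 and 42.7 CPM in astrocytes and 148, 141 and 122 CPM in pericytes, higher in every pericyte library. The log2 difference was 1.58 ± 0.06, or 2.99-fold (adjusted p = 7.35e-20). *Ldhb*, the subunit that prevails in heart, ran opposite to it, at 489, 439.7 and 459.8 CPM in astrocytes and 75.9, 73.1 and 72.7 CPM in pericytes (log2 difference -2.65 ± 0.06, adjusted p = 1.84e-24), with no overlap.

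The monocarboxylate transporters *Slc16a1* and *Slc16a3* each passed the count filter only through the class where the gene was higher. Their differences are therefore a description. *Slc16a1*, which carries lactate in many cell types, had 2889 UMIs in astrocytes (35.7, 31.4 and 34.2 CPM) and 10 in pericytes (0.426, 0.261 and 1.73 CPM), a fitted log2 difference of -5.40 ± 0.23. *Slc16a3*, the transporter typical of cells that export lactate, had 13 UMIs in the astrocyte sums (0.118, 0.120 and 0.229 CPM) and 55 in the smaller pericyte sums (5.11, 3.66 and 4.21 CPM). It was higher in all 3 pericyte libraries and low in absolute terms in both classes (fitted log2 difference 4.77 ± 0.47). Without TMM, its astrocyte level was 2.02% to 4.73% of the pericyte level, where the 7 pericyte markers outside the gate ran from 0.0224% (*Higd1b*) to 4.14% (*Pdgfrb*). *Bsg*, the membrane partner both transporters need, was at 230.4 ± 18.5 CPM in astrocytes and 236 ± 9.24 CPM in pericytes (SD, n = 3) and did not pass (0.03 ± 0.05, adjusted p = 0.575), and its sign depended on the setting. It passed as higher with total UMIs (0.24, edgeR adjusted p = 0.000211) and as lower without barcodes holding endothelial marker UMIs (-0.24, adjusted p = 0.0350). *Pdk2*, a kinase that turns pyruvate dehydrogenase off, was lower in pericytes, at 19.2, 17.8 and 16.1 CPM against 66.6, 70.3 and 65.5 CPM (-1.93 ± 0.09, adjusted p = 3.13e-17). *Pdha1*, a subunit of that dehydrogenase, was higher by a small step (0.30 ± 0.06, adjusted p = 5.51e-05), a call lost without barcodes holding endothelial marker UMIs (0.15, adjusted p = 0.371) and on sums per mouse (adjusted p = 0.171).

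Of 11 glycogen genes, 9 (81.8%) were lower in pericytes, 1 (9.09%) was higher and *Pygm* did not pass. Over all genes tested 42.8% were lower and 36.9% higher. The median log2 difference of the glycogen genes, -2.16, was the lowest of the 5 roles. The count of 9 and this median include *Ppp1r3g*, which passed the count filter through astrocytes alone. The 11 genes took 0.172% to 0.177% of the UMIs of astrocytes and 0.0484% to 0.0516% of those of pericytes. The synthesis enzymes differed in direction. *Gys1*, the glycogen synthase of most tissues, was at 46.9, 52.1 and 52.9 CPM in astrocytes and 10.7, 12.3 and 11.1 CPM in pericytes (log2 difference -2.16 ± 0.10, adjusted p = 6.44e-17), without overlap. *Ugp2*, which makes UDP-glucose, was at 422, 404 and 400.4 CPM and 168, 179.7 and 161 CPM (-1.27 ± 0.05, adjusted p = 4.56e-18). *Pgm1*, phosphoglucomutase, was lower by a larger step, at 182, 187 and 174 CPM and 22.6, 22.2 and 19.3 CPM (-3.08 ± 0.08, adjusted p = 1.71e-23). *Gbe1*, the branching enzyme, was the glycogen gene that was higher in pericytes, at 81.8, 83.6 and 71.3 CPM against 36.7, 39.0 and 38.7 CPM (log2 difference 1.05 ± 0.07, adjusted p = 8.69e-14), and all 3 pericyte values exceeded the astrocyte values.

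The 3 members that are targeting subunits, which bring protein phosphatase to glycogen, had lower levels in pericytes. *Ppp1r3g* had 5169 UMIs in astrocytes (63.9, 60.2 and 57.5 CPM) and 7 in pericytes (1.28, 0 and 0.247 CPM, 0 UMIs in library 2). The ratio of its levels, astrocytes over pericytes and with TMM-scaled totals, was 109 (exact 95% interval 53.0 to 272, counting error only). Its fitted log2 difference, -6.75 ± 0.22, ran from -12.73 to -6.24 over the alternatives and is no bound. *Ppp1r3c* fell from 81.4, 82.8 and 79.3 CPM in astrocytes to 8.95, 11.2 and 10.4 CPM in pericytes (-3.003 ± 0.099, adjusted p = 1.28e-20). *Ppp1r3d* was at 18.1, 19.0 and 17.3 CPM and 4.90, 6.79 and 3.96 CPM in the same order (-1.81 ± 0.16, adjusted p = 7.51e-11), so the classes did not overlap for these 3 subunits.

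On the breakdown side, *Phka1*, a regulatory subunit of phosphorylase kinase, was at 553, 616 and 570.3 CPM in astrocytes and at 31.3, 32.4 and 28.5 CPM in pericytes (log2 difference -4.23 ± 0.07, or 18.8-fold, adjusted p = 2.07e-27). *Pygb*, the brain form of glycogen phosphorylase, was at 325, 337 and 337 CPM and 25.1, 24.8 and 28.0 CPM (-3.68 ± 0.07, adjusted p = 7.71e-26). Both were lower in every pericyte library. *Pygm*, the muscle form, did not pass the test, with 54.7 ± 1.58 CPM in astrocytes and 57.7 ± 1.96 CPM in pericytes (SD, n = 3, log2 difference 0.08 ± 0.07, adjusted p = 0.277). With total UMIs it passed as higher in pericytes (0.29, edgeR adjusted p = 0.000467). *Gaa*, the lysosomal enzyme that degrades glycogen, was lower as well (log2 difference -0.46 ± 0.07, adjusted p = 2.04e-06).

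Levels at a trace can come from RNA of the other class in the droplets, so members were also set beside markers of the other class as shares of cells with at least 1 UMI. Each cell was thinned to 3000 UMIs, which left out 541 of 8757 astrocytes and 157 of 2260 pericytes. *Aldoc* was found in 87.2% to 89.1% of astrocytes and 5.98% to 8.87% of pericytes across libraries (92.8% to 93.5% and 9.55% to 14.4% without thinning), where *Gja1* was found in 3.12% to 5.93% and *Aqp4* in 1.17% to 2.23% of thinned pericytes. *Slc16a3* was found in 0.0357% to 0.0658% of astrocytes and in 1.29% to 1.48% of pericytes (0.112% to 0.222% and 1.96% to 2.61% without thinning). *Ldha* was found in 10.8% to 11.8% of astrocytes and 31.1% to 36.1% of pericytes, and at full depth in 28.9% to 30.8% and 44.7% to 50.5%. For *Phka1* the shares were 69.9% to 72.6% and 8.54% to 9.75% (89.6% to 91.3% and 14.3% to 15.5% without thinning).

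Within an enzyme family, the share of 1 form does not depend on how the classes are scaled to each other. Shares were computed per mouse, over the 11 mice with at least 5 cells of each class, and compared by a 2-sided permutation test over all sign changes of the within-mouse difference, adjusted over 8 families. For 11 mice that all differ between the classes, the smallest p that this test can give is 0.000977. It is larger for a family in which some mice show no difference.

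*Ldhb* made up 92.0 ± 4.58% (SD, n = 11 mice) of lactate dehydrogenase UMIs in astrocytes and 35.4 ± 6.58% in pericytes. It was lower in pericytes in 11 of 11 mice, by 56.6 percentage points on average (permutation p = 0.000977, adjusted p = 0.0026). The lowest astrocyte share was 82.4% and the highest pericyte share 49.4%, so the classes did not overlap. *Aldoc* made up 87.9 ± 3.34% of *Aldoa* and *Aldoc* UMIs in astrocytes and 3.97 ± 1.42% in pericytes (11 of 11 mice lower, permutation p = 0.000977, adjusted p = 0.0026). *Pygm* made up 16.4 ± 8.40% of *Pygb* and *Pygm* UMIs in astrocytes and 69.5 ± 9.39% in pericytes (11 of 11 mice higher, with the same p values). The highest astrocyte share of *Pygm* was 31.2% and the lowest pericyte share 54.2%. The level of *Pygm* itself did not pass the test between the classes, while *Pygb* was 12.8-fold lower in pericytes. Across the 3 libraries, where an exact test cannot go below p = 0.25, *Ldhb* made up 91.0%, 90.5% and 91.5% in astrocytes and 33.9%, 34.1% and 37.3% in pericytes, close to the means over mice. Divided by exonic length, the mean shares over libraries were 95.5% and 53.2% for *Ldhb*, 87.3% and 4.23% for *Aldoc* and 19.7% and 76.8% for *Pygm*, in astrocytes and pericytes respectively.

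The other families were less clear for the form whose share was computed. *Pfkp* made up 44.7 ± 10.5% of phosphofructokinase UMIs in astrocytes and 25.6 ± 9.48% in pericytes (10 of 11 mice lower, permutation p = 0.00488, adjusted p = 0.00781). That call was lost with UMIs divided by exonic length (difference -5.80 percentage points, permutation adjusted p = 0.0859) and without barcodes that held an endothelial marker UMI (-10.4, permutation adjusted p = 0.299), a filter that kept 357 of 2260 pericytes. The *Pfkp* share does not show the whole mix of this family. *Pfkl*, *Pfkm* and *Pfkp* had 1799, 11661 and 9829 UMIs in the astrocyte sums and 595, 199 and 262 in the pericyte sums. Shares of *Pfkl* and *Pfkm* were not tested. *Eno2* made up 2.36 ± 5.03% of enolase UMIs in astrocytes and 10.2 ± 7.39% in pericytes (9 mice higher, 0 lower, permutation p = 0.00391, adjusted p = 0.00781). With stricter gates the adjusted permutation p was 0.219 and without barcodes holding endothelial UMIs it was 0.299. *Pfkfb3* made up 39.5 ± 20.7% and 22.1 ± 26.4% of the *Pfkfb2* and *Pfkfb3* UMIs and did not pass (permutation p = 0.0879, adjusted p = 0.117). *Hk2* made up 1.07 ± 2.78% and 1.22 ± 2.72% of hexokinase UMIs (1 mouse higher, 2 lower, the others equal, permutation p = 1). With so few mice that differed, the *Hk2* test could not pass. Since *Hk2* passed the count filter through astrocytes alone, its shares are a description. *Slc16a3* could be compared in 5 mice only (0 ± 0% in astrocytes and 60.0 ± 54.8% in pericytes, exact permutation p = 0.25), and by library it made up 0.329%, 0.382% and 0.665% of the transporter UMIs in astrocytes and 92.3%, 93.3% and 70.8% in pericytes. A looser hashtag rule raised this to 12 mice, with a difference of 82.6 percentage points (permutation adjusted p = 0.00156). That p is no support, since *Slc16a3* and *Slc16a1* each passed the count filter through 1 class alone, and these shares are a description.

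**Figure D3:**
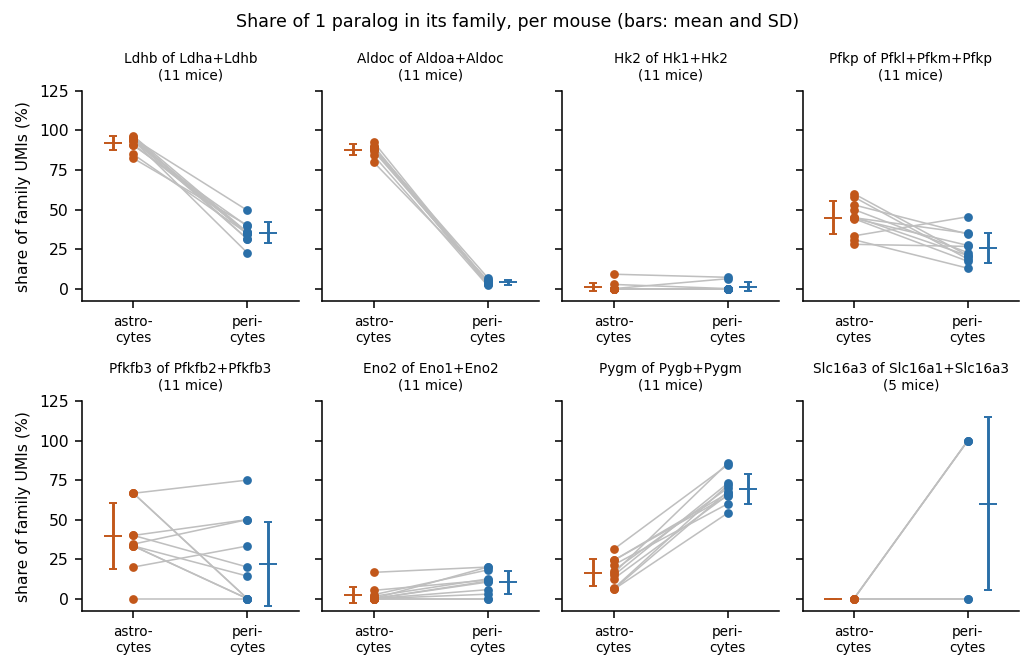
Share of the named form among the UMIs of its enzyme family, in percent, in the astrocytes and pericytes of each mouse (points; 11 mice, 5 for *Slc16a3*), with the mean and SD beside them (the SD of *Slc16a3* runs past 100%). The classes do not overlap for *Ldhb*, *Aldoc* and *Pygm* (astrocyte medians 93.8%, 88.7% and 16.2%, pericyte medians 34.9%, 3.47% and 67.7%), and overlap for *Pfkp*, *Pfkfb3*, *Eno2* and *Hk2*.

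Further genes outside the 36, of the same pathways and of hypoxia signalling, moved less uniformly. The hypoxia genes were *Hif1a*, *Epas1*, *Arnt*, *Egln1* and *Egln3*, which were higher in pericytes, and *Vhl*, which was lower. They are included in the counts that follow. Of 72 further genes, 57 could be tested, of which 30 were lower in pericytes, 20 higher and 7 not past the threshold. These were 52.6% lower and 35.1% higher, where 42.8% of all genes tested were lower and 36.9% higher. The median log2 difference was -0.27, against -0.10 over all genes tested. *Phkg1*, a catalytic subunit of phosphorylase kinase, differed most, at 398 ± 16.2 CPM (SD, n = 3 libraries) in astrocytes and 6.68 ± 3.83 CPM in pericytes (log2 difference -5.89 ± 0.12 (SE), adjusted p = 8.45e-26). The sugar transporter *Slc2a12* (-3.92 ± 0.25), *Nhlrc1*, the glycogen-related ubiquitin ligase malin (-3.67 ± 0.36), *Ldhd*, the dehydrogenase of D-lactate (-3.40 ± 0.41), and the pyruvate dehydrogenase kinase *Pdk4* (-3.05 ± 0.17) were lower too. Higher in pericytes were *Stbd1*, a glycogen-binding protein (5.40 ± 0.46; 0.124 against 5.37 CPM), *Ppp1r3b*, another phosphatase targeting subunit (3.28 ± 0.56), and the glucose transporter *Slc2a3* (2.99 ± 0.18; 2.53 against 19.9 CPM). Counts were few in 1 class for several of these genes. *Stbd1* had 10 UMIs and *Ppp1r3b* 21 in astrocytes, and in pericytes *Nhlrc1* and *Ldhd* had 7 each and *Slc2a12* 13. The differences of these genes are a description. *Slc2a3* and *Slc2a1* stood in opposite directions. Of the targeting subunits outside the members, *Ppp1r3e*, named after its values were seen like *Ppp1r3f*, was also higher (1.24 ± 0.19, adjusted p = 1.31e-06), and *Ppp1r3f* did not pass (-0.47 ± 0.25, adjusted p = 0.0855).

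The second question was whether the members differed between the behavioural groups within a class. In pericytes, no member passed adjusted p under 0.05 in any of the 6 pairs of groups. The largest block of shifts below that threshold was in NoFR against NoFC, where most members tested lay lower in NoFR. The members were not tested as a set. In astrocytes, no member passed either.

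Pericytes could be assigned to all 16 mice, 4 in each group, with 36 to 110 cells per mouse and 1024 in all. Groups were compared with edgeR on the sums per mouse with the library as a covariate, over 6543 genes and 22 members that passed the filter on low counts. In NoFR against NoFC 0 members were called, where 1.07% of all genes were, by edgeR, and 0 by DESeq2. The other pairs called 0 members as well, where 0.443% of all genes were called in NoFR against FC, 0.0917% in FR against NoFR and 0% in the other 3. DESeq2 called 0 members in each of the 6 pairs too.

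For NoFR against NoFC, 19 of 22 members had a log2 difference below 0, where 50.3% of all genes did, and the median was -0.20 over the members and -0.00 over all genes. In the other pairs 15 members lay below 0 in FR against NoFC, 14 in NoFR against FC and 13 in FC against NoFC. The number was 11 in FR against FC and 9 in FR against NoFR. Pairs share mice, and members read in the same mice are not independent, so these counts are a description. The unadjusted p was under 0.05 for 6 members, all lower in NoFR, where 8.62% of all genes passed in either direction and 4.14% were lower. *Pfkl* was at 71.3, 45.8, 69.6 and 94.5 CPM in the NoFC mice, at 56.6, 56.3, 57.1 and 60.7 in the FC mice, at 24.4, 47.4, 25.6 and 54.7 in the NoFR mice and at 79.2, 62.1, 70.1 and 36.4 in the FR mice. The NoFC and NoFR mice overlapped, since the lowest NoFC mouse was below the 2 highest NoFR mice. The log2 difference, NoFR minus NoFC, was -0.96 ± 0.30 (edgeR, unadjusted p = 0.00239, adjusted p = 0.134). Within library 1 the values were 71.3 and 45.8 CPM in NoFC and 24.4 and 47.4 in NoFR, and within library 3 they were 94.5 CPM in the single NoFC mouse and 25.6 and 54.7 in NoFR. Over the alternatives the adjusted p ran from 0.0328 to 0.760, and its lowest value came with FR mouse 4 left out (edgeR log2 difference -1.11), when *Pfkl* became the only member called.

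*Aldoa* was at 618, 458, 578 and 593 CPM in NoFC mice and 440.0, 527, 403 and 376 CPM in NoFR mice (-0.35 ± 0.12, edgeR unadjusted p = 0.00654, adjusted p = 0.247). These groups overlapped through NoFC mouse 2 and NoFR mouse 2. *Gbe1* (-0.62 ± 0.25, edgeR adjusted p = 0.377), *Eno1* (-0.67 ± 0.30, adjusted p = 0.472), *Ldha* (-0.39 ± 0.18, adjusted p = 0.490) and *Tpi1* (-0.42 ± 0.20, adjusted p = 0.528) had the same sign. *Ldha* was at 190.0, 169, 139 and 163 CPM in NoFC mice and 150.1, 116, 105 and 109 CPM in NoFR mice, again with overlap between the groups. In FR against NoFC, *Aldoa* was lower at the unadjusted level (-0.34 ± 0.12, edgeR unadjusted p = 0.00527, adjusted p = 0.514), and this pair shares its NoFC mice with the pair above. *Aldoa* averaged 561 ± 71.0 CPM (SD, n = 4 mice) in the NoFC group and 505 ± 32.9 CPM in the FC group, and the NoFR and FR groups averaged 436 ± 65.8 and 444 ± 28.4 CPM.

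Among the remaining pairs in pericytes, the smallest unadjusted p values were those of *Bsg* in FR against NoFR (log2 difference 0.50 ± 0.17, edgeR unadjusted p = 0.00488, adjusted p = 0.548) and of *Pfkp* in FC against NoFC (-1.17 ± 0.44, edgeR unadjusted p = 0.00999, adjusted p = 1.00). The *Bsg* difference rested on FR mouse 4, at 513 CPM where the other FR mice were at 285, 191 and 234, and without that mouse it was -0.03. *Pfkp* was at 31.7, 38.7, 22.2 and 20.0 CPM in NoFC and at 14.2, 16.1, 10.98 and 4.67 CPM in FC mice. At unadjusted p under 0.05, 1 member was counted in FC against NoFC (4.59% of all genes), 2 in FR against NoFC (6.39%), 3 in NoFR against FC (7.69%), 0 in FR against FC (4.83%) and 2 in FR against NoFR (6.27%).

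**Figure D4:**
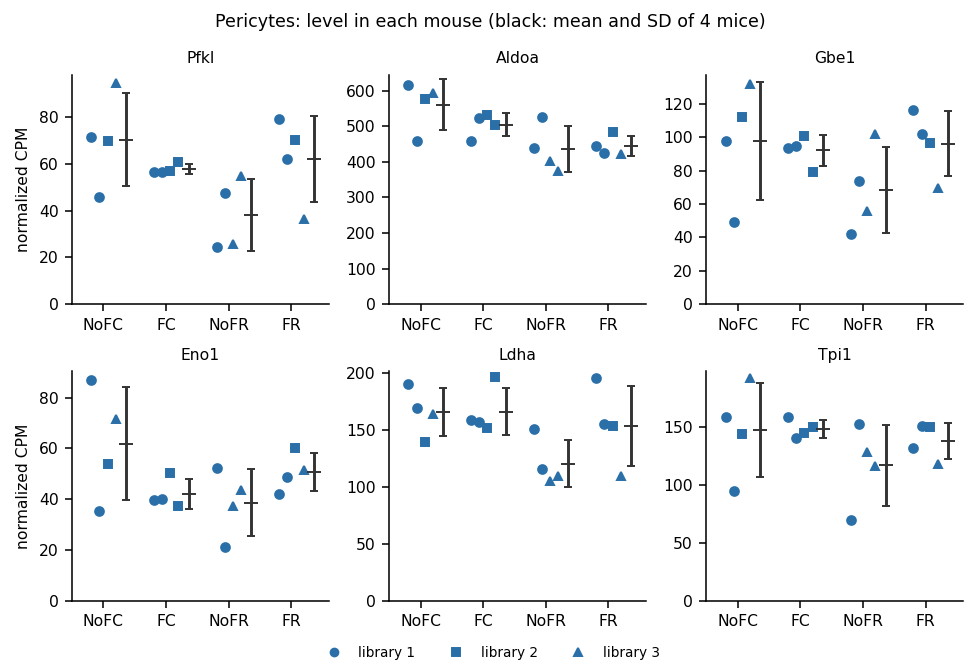
Level in pericytes, in normalized CPM, of the 6 members with unadjusted p under 0.05 in NoFR against NoFC, for each mouse (points; the shape gives the library) with the mean and SD of 4 mice in black. In each panel the mean of the NoFR mice is below that of the NoFC mice (38.0 against 70.3 CPM for *Pfkl*), and the 2 groups overlap.

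Astrocytes carried weak hashtags, whose top hashtag had a median of 3 to 4 UMIs per cell by library, against 17 to 20 in pericytes. By the same rule 11 mice kept at least 5 astrocytes (2 NoFC, 2 FC, 4 NoFR and 3 FR mice), with 316 cells in all and 159 of them from 1 FC mouse. Over 3390 genes and 26 members, edgeR called 0 members in each of the 6 pairs, where it called 0.0295% of all genes in FC against NoFC, 0.059% in NoFR against NoFC, 0.0295% in FR against NoFC and 0% in the rest, and DESeq2 called 0 members. At unadjusted p under 0.05, 2 members were counted in NoFR against NoFC (3.89% of all genes), 1 in FR against FC (2.63%) and 0 in FC against NoFC (2.74%), FR against NoFC (3.81%), NoFR against FC (2.8%) and FR against NoFR (3.45%).

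Those were *Phka1* and *Gaa* in NoFR against NoFC and *Pygm* in FR against FC. *Phka1* was at 681 and 887 CPM in the 2 NoFC mice and at 417, 369, 428 and 395 CPM in the 4 NoFR mice (-0.90 ± 0.34, edgeR unadjusted p = 0.0120, adjusted p = 0.966). *Gaa* was at 54.0 and 17.8 CPM in NoFC and at 112, 104, 36.4 and 84.7 CPM in NoFR (1.86 ± 0.77, edgeR unadjusted p = 0.0216, adjusted p = 0.966), on 2 to 14 UMIs per mouse. *Pygm* was at 45.2 and 77.2 CPM in FC and at 102, 80.8 and 67.4 CPM in FR (1.42 ± 0.66, edgeR unadjusted p = 0.0381, adjusted p = 0.999), with overlap. With the looser hashtag rule, which kept 1402 astrocytes in 16 mice, 0 members were called again. With 5 to 159 astrocytes per mouse, 10 of the 36 members did not pass the filter on low counts and were not compared.

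**Figure D5:**
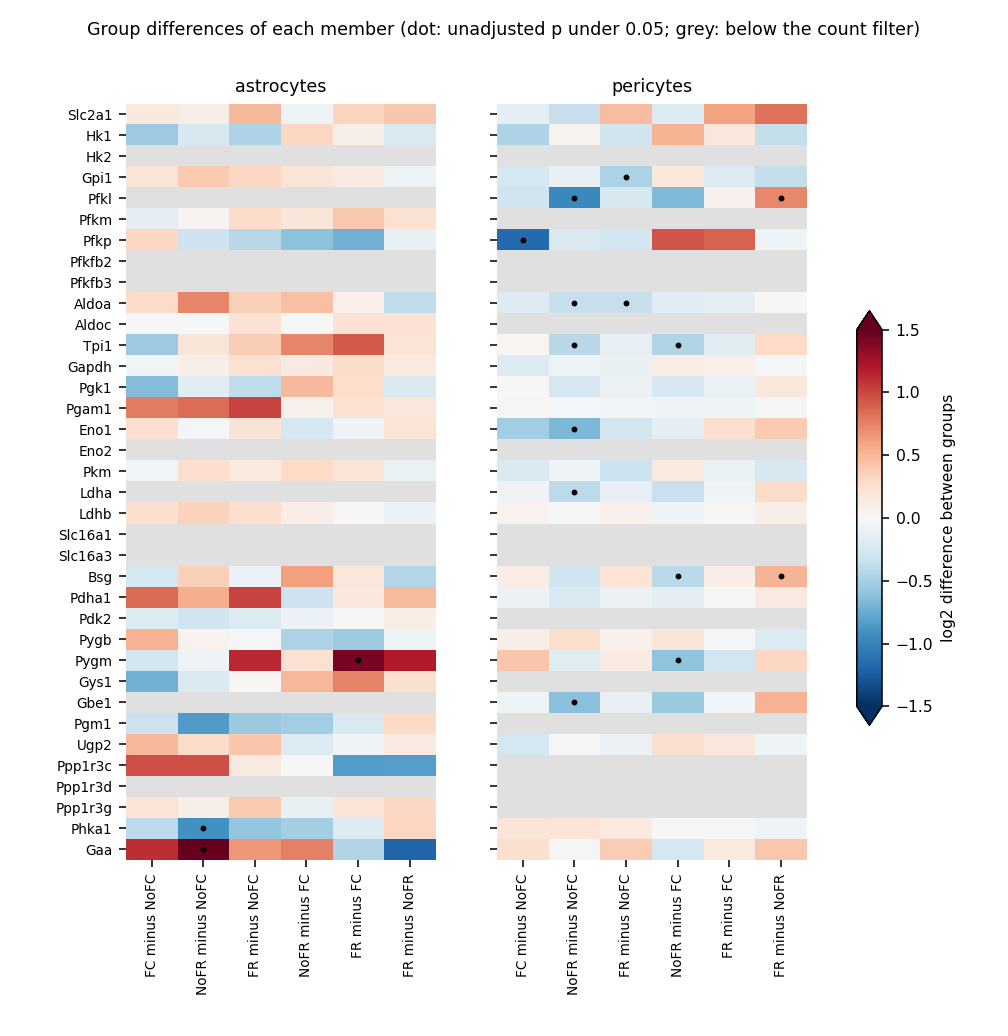
Log2 difference of each member between groups, by pair (columns) and class (panels), from the fits to sums per mouse, with dots where the unadjusted p was under 0.05 and grey where the member did not pass the filter. No square passed adjusted p under 0.05, and the column of NoFR minus NoFC in pericytes holds 6 dots, all in members lower in NoFR.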

How the data were processed

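The authors sequenced droplet libraries of hashtagged, sorted cells and deposited unnormalized UMI counts per gene and hashtag for every barcode of 3 libraries. The submitters' notes name Cell Ranger 3.0 and mm10, whereas the deposited matrices name Cell Ranger 7.0.0, and no source used here says whether intronic reads were counted, which changes how many UMIs a gene receives.

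Barcodes were gated as described and no doublet caller was run. The gates leave out barcodes with UMIs of both marker pairs above the stated limits, but not doublets with cells of other types. UMI counts were summed per library and class, and per mouse where the top hashtag had at least 10 UMIs and 3 times the next, in mice with at least 5 cells. The sums were fitted with edgeR 4.0.16 (TMM, filterByExpr, quasi-likelihood test) in R 4.3.3, with Benjamini-Hochberg adjustment over all genes tested and DESeq2 1.42.0 as an alternative. Class fits used the library as a block, because both classes of a library come from the same capture, and left out the 4 gate genes. Group fits used 4 groups and the library. Standard errors are the log2 difference divided by the square root of F. The labels do not say whether the 3 libraries came from separate days. Thinned shares are expected values of sampling 3000 UMIs per cell without replacement. Intervals cover counting error only.

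The 36 genes, the lists and the tests were chosen with earlier results of these data known. Values in every library were given for members past adjusted p 0.05 with a log2 difference of at least 1, and in every mouse for up to 6 members per class with the smallest unadjusted p. *Aldoa* had 2 identifiers, of which the one with 22886 and 5678 UMIs was used and the one with 58 and 2 was not. Upstream sequences came from RefSeq (GRCm38.p6), which matched 35 of the 36 members.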

Additional observations from a re-analysis of the deposited data

Results flagged for a closer look

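In 43 sets of 4 mice, which held the levels of the members named in the group comparisons, 2 values stood far from the other 3 mice of their group, about what chance gives at 1 in 20. *Ldha* in the pericytes of FC mouse 4 was at 196.2 CPM where the other FC mice were at 151 to 159 CPM, on 39 cells of library 2. *Pygm* in the pericytes of NoFR mouse 2 was at 73.7 CPM where the other NoFR mice were at 45.4 to 48.9 CPM, on 38 cells of library 1.

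Some cells carried a clear hashtag that the deposited table assigns to no mouse of their library. There were 111 such astrocytes and 538 such pericytes, which entered the sums per library but none of the sums per mouse.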

How the results depend on the processing

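Over 454 values of single members in the class comparison under its alternatives, 432 kept their direction and side of the threshold, 9 fell short of it (*Pgam1* under 4 alternatives, *Pdha1* under 2, and *Hk2*, *Gpi1* and *Gaa* under 1 each), 4 passed it newly and 9 changed sign, and the cause was not tested. The sign changes were in members that had not passed in the main fit: *Tpi1* 0.11 (log2) with total UMIs, *Eno2* 0.14, *Bsg* -0.24 and *Pygm* -0.14 without barcodes holding endothelial marker UMIs, *Bsg* -0.037 without the count filter, -0.054 with stricter gates and -0.011 without barcodes holding *Cldn5*, *Pecam1*, *Cdh5* or *Ly6c1* UMIs (chosen after seeing the data), and *Pygm* -0.29 on sums per mouse. At -0.24 *Bsg* was past the threshold (edgeR adjusted p = 0.0350). With each library left out, *Bsg* ran from -0.0038 to 0.0975 and the counts stayed at 32, 7 and 25. On sums per mouse, with fewer genes tested, 16 members passed (4 higher, 12 lower). Without the replicate block 32 members passed (7 higher, 25 lower), so the pairing by library changed no count.

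Of 373 values for members named in the group comparisons, 371 kept direction and side. Without FR mouse 4, *Bsg* in FR against NoFR was -0.025 (up to 0.65 with other mice left out) and 1 pericyte member passed in NoFR against NoFC, against 0 otherwise.

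Among family shares, the *Eno2* difference lost its call with stricter gates (10.5 percentage points) and without barcodes holding endothelial marker UMIs (22.6). That of *Pfkp* lost its call without those barcodes (-10.4) and per length (-5.80). The filter on endothelial marker UMIs kept 357 of 2260 pericytes. With looser hashtags that of *Hk2* was -4.08 and that of *Slc16a3*, at 82.6, passed but is a description, as said above. The *Slc16a3* test under the stricter gates and without barcodes holding endothelial marker UMIs was not run, since 1 mouse remained. The median difference in shares of cells over the members, -20.3 percentage points at full depth, was -4.61 thinned to 3000 UMIs and -3.16 to 2000.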

Other observations

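Other enzymes of the same pathways, singled out after their values were seen, gave further detail to the difference between pericytes and astrocytes. The phosphorylase kinase subunits beside *Phka1* and *Phkg1* were lower in pericytes as well (*Phka2* did not pass), *Phkb* by a log2 difference of -2.06 ± 0.06 (SE; edgeR adjusted p = 5.02e-22) and *Phkg2* by -0.77 ± 0.10 (adjusted p = 1.2e-07). *Epm2a*, the glycogen phosphatase laforin, differed by -2.17 ± 0.13. The kinases of pyruvate dehydrogenase were not uniform. *Pdk2* and *Pdk4* were lower in pericytes, *Pdk1* was lower by little (-0.24 ± 0.10, adjusted p = 0.0386), and *Pdk3* was higher (1.66 ± 0.21, adjusted p = 4.21e-08). In the pentose phosphate pathway *Tkt*, transketolase, was lower (-1.78 ± 0.06), as was *G6pdx*, its entry enzyme (-0.53 ± 0.12), whereas *Pgls* (0.62 ± 0.07), *Taldo1* (0.22 ± 0.06) and *Rpia* (0.67 ± 0.15) were higher.

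The levels of 6 genes of the hypoxia pathway, whose element holds the ACGTG core searched above, were read after their values were seen, where 79.6% of all genes tested differed between the classes. *Epas1*, a hypoxia-inducible factor, was at 111 ± 3.98 CPM (SD, n = 3 libraries) in astrocytes and 652 ± 9.76 CPM in pericytes (log2 difference 2.55 ± 0.05, edgeR adjusted p = 4.07e-26). *Hif1a* was higher by a smaller step (0.20 ± 0.06, adjusted p = 0.002), as was *Arnt*, the partner of both (0.26 ± 0.06). Of the genes that turn these factors over, *Egln1* (1.13 ± 0.07) and *Egln3* (1.60 ± 0.42) were higher in pericytes and *Vhl* was lower (-1.14 ± 0.11). All of these genes were among the further genes counted above. No relation between them and the members was tested.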
